A study of Mus musculus with 36 samples.

Results

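Transcripts of 10 heat shock proteins and co-chaperones were followed in mouse gastrocnemius across sedentary and running groups. The 10 genes, Hspa1a, Hspa1b, Hspa8, Hsph1, Hspb1, Hspb6, Hspb7, Cryab, Dnajb1 and Hsp90aa1, were taken by their gene symbol from a table of 46893 features. Each symbol was found once, and all 10 genes passed the minimum mean count of 25 in every comparison. Together they held 0.221 to 0.513% of the counts of a library.

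Male wild-type C57BL/6 mice entered the experiment at 3 to 4 weeks of age and were kept for 12 weeks in 6 groups of 6. NFD-C mice were sedentary and ate the AIN93G diet, whereas HFD-C mice were sedentary on a high-fat diet (HFD). The 4 running groups also ate the HFD and used an in-cage wheel with a programmable brake. HFD-U ran without restriction and averaged 8.3 km a day, whereas the brake held HFD-75% to 6.3 km, HFD-50% to 4.2 km and HFD-25% to 2.1 km. No group ran on the AIN93G diet, so running was compared within the HFD alone. The muscle was sampled whole, so fewer fibres of a type and less RNA per fibre cannot be told apart.

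Poly(A) RNA gave 1 library per mouse, with 13060090 to 27981702 reads counted on genes. Pairs of libraries within a group differed by 16.2 to 218 times the variance that counting alone gives. The skeletal muscle fibre genes Acta1, Ckm, Mylpf, Tnnt3, Tnni2, Myh4, Myh1 and Myh2 summed to between 80100 and 154000 CPM (counts scaled to a library total of 1000000) in every library, against 1.10 to 89.9 CPM for 6 adipocyte genes and 25.5 to 74.1 CPM for 6 macrophage genes. The share taken by 5 features that collect reads from ribosomal RNA split the libraries into 2 sets. This share was 2.01 to 3.80% in NFD-C and in HFD-C mice 1 to 4, and 0.404 to 1.02% in HFD-C mice 5 and 6 and in all runners. Results against HFD-C are therefore also given with mice 5 and 6 as the only HFD-C libraries, and with the share as a covariate, where these end a call. The first of these fits holds fewer HFD-C mice, so a call can end there without a smaller difference.

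Heat shock proteins are molecular chaperones that bind unfolded or partly folded proteins and keep them from aggregating. HSP70 proteins bind and release their clients in a cycle of ATP hydrolysis, which J-domain co-chaperones of the HSP40 family start and exchange factors of the HSP110 type complete, and HSP90 takes over many clients for their final folding. Small heat shock proteins need no ATP, and in muscle they are found at Z-discs and on filaments that are under mechanical load. Transcription of the inducible members is switched on by heat shock factor 1, which binds repeated GAA units in their promoters.

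Sequences upstream of the start site were available from RefSeq (GRCm38.p6) for 7 of the 10 genes and covered 10 start sites. The 3 windows below are those of the genes with the most frequent calls in the comparisons that follow, and each holds the 250 bases before the start site, 5′ to 3′ on the gene's own strand. Capitals mark paired inverted units of the heat shock element, written GAANNTTC or TTCNNGAA.
Hsph1, chr5:149636337-149636586, minus strand: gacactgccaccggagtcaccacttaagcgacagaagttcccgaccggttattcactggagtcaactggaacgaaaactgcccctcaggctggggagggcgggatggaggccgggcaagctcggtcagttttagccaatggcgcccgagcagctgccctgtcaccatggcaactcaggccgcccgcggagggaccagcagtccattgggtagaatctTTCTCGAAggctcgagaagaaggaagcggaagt
Hspa1a, chr17:34972157-34972406, minus strand: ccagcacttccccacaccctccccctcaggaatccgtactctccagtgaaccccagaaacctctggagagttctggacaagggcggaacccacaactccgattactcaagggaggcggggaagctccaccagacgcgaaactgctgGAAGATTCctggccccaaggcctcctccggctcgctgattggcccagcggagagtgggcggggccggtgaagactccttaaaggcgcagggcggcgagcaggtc
Hspa1b, chr17:34959239-34959488, minus strand: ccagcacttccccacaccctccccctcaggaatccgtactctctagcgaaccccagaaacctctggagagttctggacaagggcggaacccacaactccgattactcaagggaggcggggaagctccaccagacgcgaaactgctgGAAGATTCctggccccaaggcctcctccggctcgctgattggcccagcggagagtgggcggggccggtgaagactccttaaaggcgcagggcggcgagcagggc
The Hspa1a and Hspa1b windows differed at 3 of 250 bases. Both carried GAANNTTC once, a pattern found in 6.69% of 32851 upstream windows of the same length, and Hsph1 carried TTCNNGAA once, found in 7.17% of them. These patterns read the same on both strands. The run of 3 alternating units (GAA, TTC, GAA, with any 2 bases between units), which contains both shorter patterns and was searched on both strands, was in 0 of the 10 windows and in 0.466% of all windows. A match is a description of the letters only, and no binding was measured.

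Among the 10 genes the levels per kilobase of transcript spanned a wide range. The constitutive HSP70 gene Hspa8 was highest, with a median of 454.4 CPM per kilobase of transcript (FPKM) over the 36 libraries. Cryab at 373.3 FPKM and Hspb6 at 363.2 FPKM followed, then Hspb1 at 183.7 FPKM and Hspb7 at 118.9 FPKM, so 4 of the 5 most abundant transcripts were those of small heat shock proteins. Hsp90aa1 had 14.8 FPKM and Hsph1 12.6 FPKM. Lowest were Dnajb1 at 1.83 FPKM, Hspa1a at 1.76 FPKM and Hspa1b at 1.12 FPKM. The levels of Hspa1a and Hspa1b are uncertain, since part of their sequence is identical, as described below.

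Mice of the same group differed most in Hspb7 and Hspa1a. The median coefficient of variation within a group was 58.8% for Hspb7 and 55.4% for Hspa1a, and 98.1% and 97.7% of the 12053 genes tested over all libraries varied less. Hspa1b followed with 38.1%, Cryab with 34.6% and Hspb6 with 31.4%. The median over all genes was 19.8%, and Hspb1 at 18.5%, Hsph1 at 16.0%, Dnajb1 at 15.5% and Hsp90aa1 at 15.2% lay below it. Hspa8 was the steadiest member with 9.23%, a value that 3.34% of genes undercut.

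**Figure D1:**
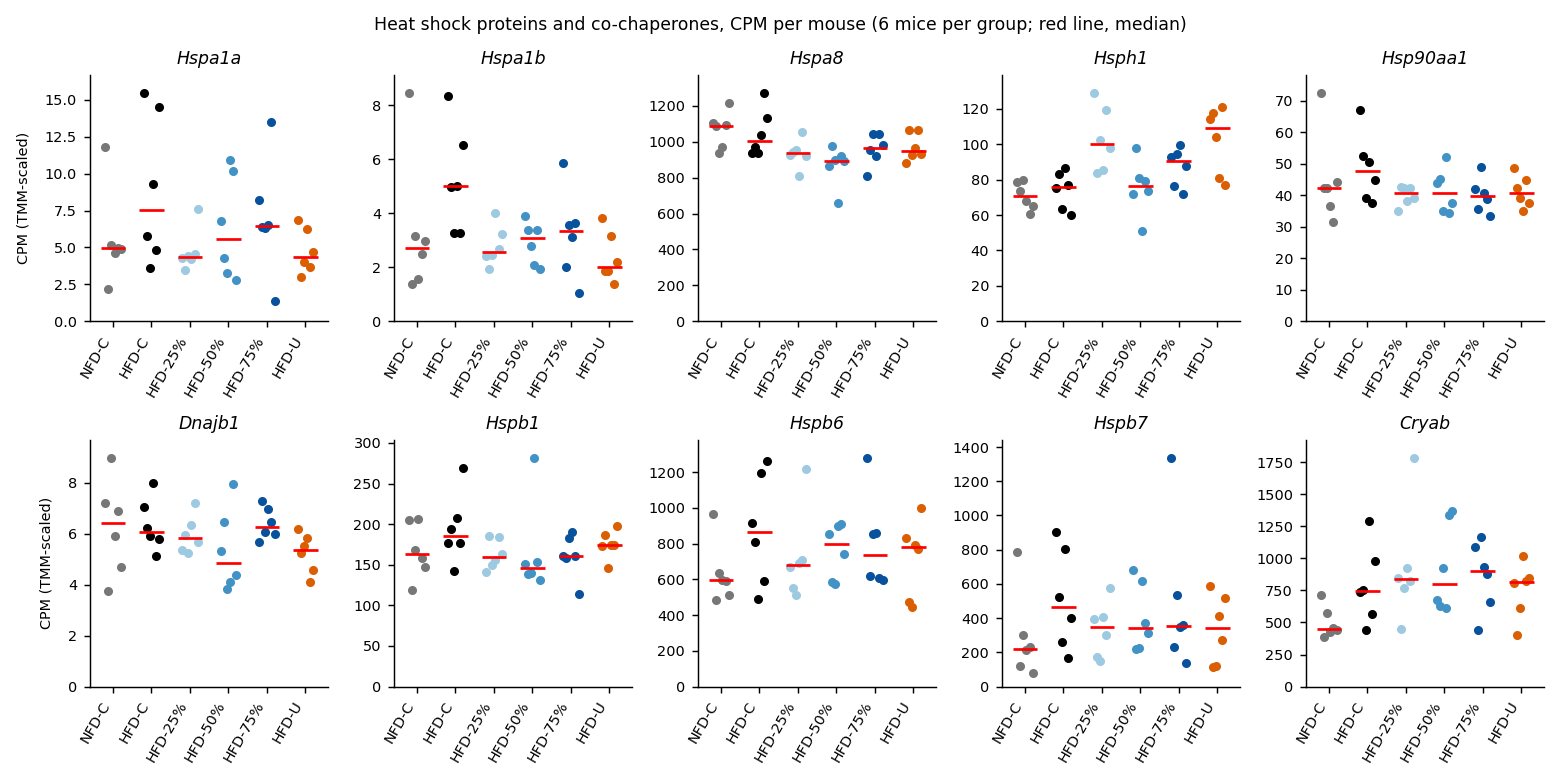
Level of each of the 10 genes in every mouse, in CPM scaled with TMM factors, with each panel starting at 0. Each point is 1 mouse, each group has 6 mice and the red line is the group median. Hsph1 medians ran from 70.7 CPM in NFD-C to 109 CPM in HFD-U, and the Hspa1b median was highest in HFD-C at 5.00 CPM.

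Which members differed between running and sedentary mice on the HFD was asked for each distance. HFD-25% had 3 members past the study's limit of an unadjusted p of at most 0.05, Hspa1a and Hspa1b lower and Hsph1 higher, where 6.98% of the 12202 genes tested passed. HFD-50% had 1, Hspa1b lower, where 10.7% of 12116 genes passed. HFD-75% had 0, where 5.47% of 12113 genes passed. HFD-U had the same 3 members in the same directions as HFD-25%, where 5.46% of 12023 genes passed. Blocking on the mouse number gave 1232 genes in HFD-U, with the same 3 members among them. These 4 comparisons share the HFD-C mice. Markers of other cells moved in the same comparisons. In HFD-U 3 of the 4 adipocyte genes tested of a list of 6, Lep, Adipoq and Cidec, were lower, with a median log2 fold change of -2.04, as were 1 of 5 macrophage genes (Cd68), 1 of 5 Schwann cell genes (Prx) and 1 of 5 blood genes (Hba-a2). The adipocyte genes summed to 1.57 to 15.0 CPM in HFD-U with a median of 9.05, and to 2.74 to 89.9 CPM in HFD-C with a median of 7.70. In HFD-25%, where the adipocyte sum was 1.10 to 24.2 CPM, Lep was lower and the endothelial gene Cdh5 was higher. None of the markers was at 0 in every library of a group, and their part in the members' levels was not tested. An adjusted p of at most 0.05 was reached by 0 of the 10 members in any of them, and by 1 gene (0.0082%) in HFD-25% and 0 genes in the other distances.

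The direction of the members was uneven whether or not they passed. In HFD-25% and HFD-50% 8 of 10 members were lower than in HFD-C, in HFD-75% 7 and in HFD-U 9. The ribosomal RNA share as a covariate turned these counts into 5, 6, 5 and 7 in order of distance, and HFD-C mice 5 and 6 alone into 6, 6, 6 and 7. From the shortest distance to the longest, the median log2 fold change of the 10 genes was -0.26, -0.24, -0.12 and -0.25, beside medians over all genes tested of -0.01, 0.01, -0.00 and -0.01. With the covariate the members' medians were -0.13, -0.21, -0.04 and -0.20, and with HFD-C mice 5 and 6 alone -0.19, -0.15, -0.12 and -0.18. With mice 5 and 6 as the only HFD-C libraries, 4 members passed in HFD-25%, where 11.6% of genes passed, and these were Hspa1a, Hspa1b, Hsph1 and Hspb1. In HFD-U 3 passed beside 11.8% of genes, in HFD-50% 1 (Hspa8) beside 9.45% and in HFD-75% 1 (Hspb1) beside 8.99%. For 0 of the 10 members did a running group and HFD-C not overlap, beside 0.156, 0.371, 0.0991 and 0.0998% of genes separated with the runners higher and 0.221, 0.421, 0.165 and 0.208% with the runners lower, in order of distance.

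**Figure D2:**
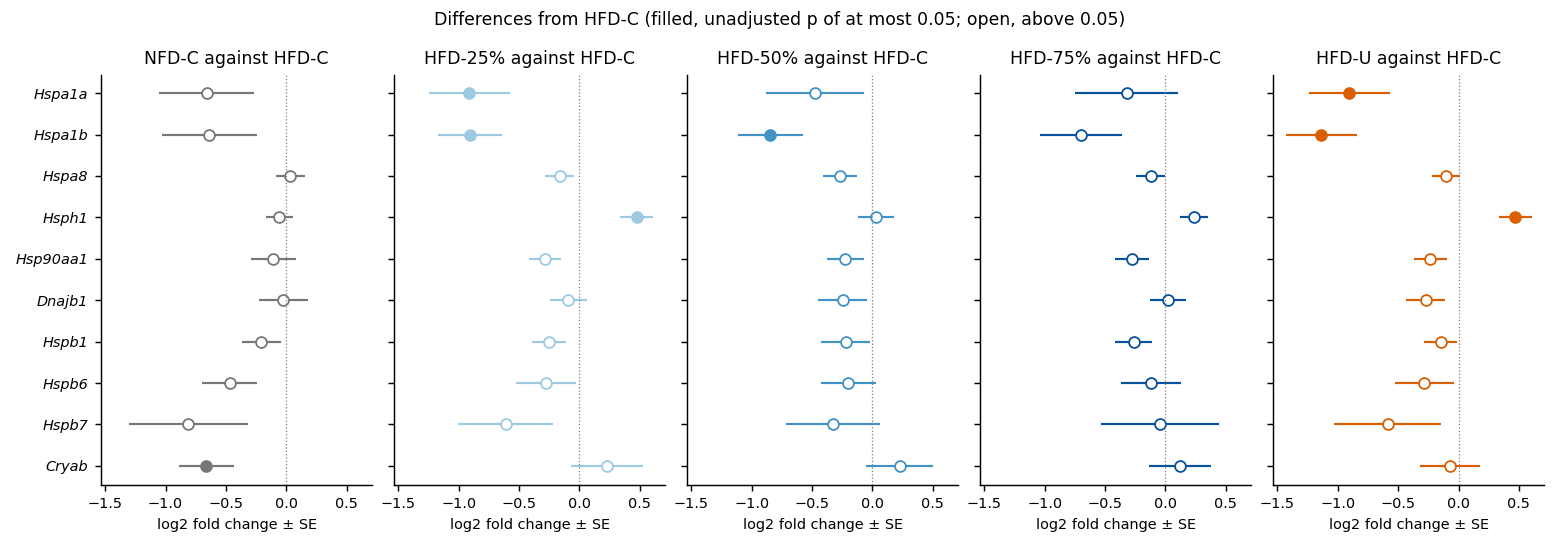
Log2 fold change against HFD-C with its standard error (horizontal bars) for the 10 genes in NFD-C and the 4 running groups, from edgeR. Filled points had an unadjusted p of at most 0.05. Hspa1b lies at -0.91, -0.84 and -1.14 in HFD-25%, HFD-50% and HFD-U, and Hsph1 at 0.47 in both HFD-25% and HFD-U.

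Hsph1 encodes HSP110, a nucleotide exchange factor of HSP70, and lies at chr5:149540308-149562594 on the minus strand (gene 15505; GRCm39, as are all gene positions given here). HFD-C mice had 59.99 to 86.8 CPM with a median of 76.0, and NFD-C mice 60.4 to 79.8 CPM with a median of 70.7. HFD-25% ran from 83.8 to 129 CPM with a median of 100.2, and HFD-U from 77.1 to 121 CPM with a median of 109. In both of these groups 4 of 6 mice exceeded every HFD-C mouse. HFD-75% mice had 71.7 to 99.4 CPM with a median of 90.2, and again 4 of 6 were above every HFD-C mouse. HFD-50% mice had 50.8 to 97.8 CPM with a median of 76.2, and 1 of them was.

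Against HFD-C, Hsph1 rose in HFD-25% by 0.47 on the log2 scale (SE 0.134, adjusted p = 0.404) and in HFD-U by 0.47 (SE 0.135, adjusted p = 0.552). Both values stayed within the unadjusted limit under all 7 alternative settings tried and when any 1 of the 12 mice was left out. Hsph1 had 0.24 in HFD-75% (adjusted p = 0.936) and 0.03 in HFD-50% (adjusted p = 0.962), and neither passed.

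The distances were also set against each other without the sedentary mice. Over the 4 running groups 1 member passed at the unadjusted limit, where 7.27% of 11935 genes passed, and it was Hsph1 (adjusted p = 0.536). In HFD-50% against HFD-U 1 member passed, where 12.4% of 11851 genes passed, again Hsph1, which was the lower in HFD-50% (log2 fold change -0.44, SE 0.156, adjusted p = 0.294). The ribosomal RNA share was 0.559 to 1.02% in HFD-50% and 0.470 to 0.622% in HFD-U. With this share as a covariate Hsph1 no longer passed in HFD-50% against HFD-U (-0.24, adjusted p = 0.998) or over the running groups (adjusted p = 1).

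Over all 6 groups 3 members passed at the unadjusted limit, where 12.2% of 12053 genes passed. Hsph1 had the smallest p of the 10 genes and was the 1 member with an adjusted p of at most 0.05 (adjusted p = 0.0314), which 1.45% of genes reached. Hspa1b (adjusted p = 0.383) and Cryab (adjusted p = 0.371) were the others. Group medians of Hsph1 stood in the order NFD-C, HFD-C, HFD-50%, HFD-75%, HFD-25% and HFD-U. Neighbours in that order overlapped, and of all pairs of groups, for all 10 genes, only NFD-C and HFD-25% in Hsph1 did not overlap, with 0.348% of genes separated in this direction between these groups. With the ribosomal RNA share as a covariate the adjusted p of Hsph1 over 6 groups was 0.261, and Hspa1b (adjusted p = 0.629) and Cryab (adjusted p = 0.537) did not pass.

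Hspa1a and Hspa1b encode the stress-inducible HSP70 and lie near each other on chromosome 17, Hspa1a at chr17:35188335-35191132 (gene 193740) and Hspa1b at chr17:35175405-35178214 (gene 15511), both on the minus strand. Their reading frames of 1926 and 1929 bases were 99.4% identical, and 38.1% of all 150-base windows of the Hspa1a transcript occurred unchanged in Hspa1b, so the division of reads between the 2 genes is uncertain. Hspa1b counts ranged from 16 to 235 per library and Hspa1a counts from 21 to 436.

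Hspa1b was highest in HFD-C, where the 6 mice had 3.26 to 8.34 CPM with a median of 5.00. HFD-25% mice had 1.94 to 4.02 CPM with a median of 2.56, HFD-50% mice 1.94 to 3.88 CPM with a median of 3.08, and HFD-U mice 1.39 to 3.81 CPM with a median of 2.02. In each of these 3 groups every runner lay below the HFD-C median, and 4 of 6 HFD-C mice lay above every runner. HFD-75% mice spread from 1.05 to 5.87 CPM with a median of 3.35. NFD-C mice had 1.38 to 8.46 CPM with a median of 2.72, and the highest of them, mouse 1, stood far above the next at 3.17 CPM.

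Hspa1b fell in HFD-25% by 0.91 on the log2 scale (SE 0.265, adjusted p = 0.427), in HFD-50% by 0.84 (SE 0.268, adjusted p = 0.270) and in HFD-U by 1.14 (SE 0.294, adjusted p = 0.427). In HFD-75% its log2 fold change was -0.70 (SE 0.343, adjusted p = 0.929), which did not pass. The HFD-U call held with the mouse number as a block (adjusted p = 0.110). With the ribosomal RNA share as a covariate the HFD-25% value was -0.67 and did not pass (adjusted p = 0.427). With HFD-C mice 5 and 6 alone the HFD-50% value was -0.74 and did not pass (adjusted p = 0.556). Over 7 alternative settings the adjusted p of Hspa1b lay between 0.117 and 0.449 in HFD-25%, between 0.108 and 0.556 in HFD-50% and between 0.0568 and 0.424 in HFD-U.

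Hspa1a was also lower than in HFD-C at every distance, and passed the unadjusted limit at 2 of them. HFD-C mice had 3.62 to 15.5 CPM with a median of 7.55, and HFD-25% and HFD-U mice had medians of 4.33 CPM (range 3.49 to 7.57) and 4.35 CPM (range 3.03 to 6.84). The groups overlapped, since 3 of 6 HFD-C mice lay within the range of the runners. Hspa1a fell by 0.91 in HFD-25% (SE 0.333, adjusted p = 0.591) and by 0.90 in HFD-U (SE 0.338, adjusted p = 0.790) on the log2 scale. Without HFD-C mouse 1, which had 15.5 CPM, the HFD-25% value was -0.67 (adjusted p = 0.747) and the HFD-U value -0.67 (adjusted p = 0.744), and neither passed. Both calls were also lost with the ribosomal RNA share as a covariate, at -0.84 in HFD-25% (adjusted p = 0.439) and -0.86 in HFD-U (adjusted p = 0.465). Over 7 alternative settings the adjusted p of Hspa1a lay between 0.311 and 0.595 in HFD-25% and between 0.257 and 0.853 in HFD-U. HFD-50% mice had 2.80 to 10.9 CPM and HFD-75% mice 1.38 to 13.5 CPM, and the log2 fold changes there, -0.47 (adjusted p = 0.721) and -0.32 (adjusted p = 0.999), did not pass.

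Hspa8 and Hsp90aa1 encode the constitutive HSP70 (HSC70) and the stress-inducible cytosolic HSP90α, and Dnajb1 encodes the main inducible J-domain partner of HSP70. Hspa8, at chr9:40712572-40716498 (gene 15481), had group medians between 896 CPM in HFD-50% and 1089 CPM in NFD-C. Hsp90aa1, at chr12:110657470-110662829 (gene 15519), had medians between 39.7 CPM in HFD-75% and 47.6 CPM in HFD-C, and the medians of the 4 running groups lay between 39.7 and 40.8 CPM. Dnajb1, at chr8:84334804-84339282 (gene 81489), had medians between 4.84 CPM in HFD-50% and 6.41 CPM in NFD-C. For each of these 3 genes the ranges of all 6 groups overlapped. In the main fits of single distances against HFD-C none passed, the closest being Hsp90aa1 in HFD-25% with -0.28 (adjusted p = 0.718). Hsp90aa1 in HFD-25% passed in 0 of 7 alternative settings. Hspa8 in HFD-50% passed in 4 of 7, with values from -0.464 to -0.268 over all 7 (adjusted p from 0.181 to 0.523). With the ribosomal RNA share as a covariate Hspa8 did pass in 3 of the 4 distances, at -0.36 in HFD-25% (adjusted p = 0.324), -0.46 in HFD-50% (adjusted p = 0.309) and -0.32 in HFD-U (adjusted p = 0.380).

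When the 24 running mice were pooled against HFD-C, 5 members passed at the unadjusted limit, where 9.27% of 12006 genes passed. Hspa1b fell by 0.89 on the log2 scale (SE 0.224, adjusted p = 0.0775) and Hspa1a by 0.64 (SE 0.295, adjusted p = 0.496). Hsp90aa1 fell by 0.26 (SE 0.0939, adjusted p = 0.312) and Hspa8 by 0.17 (SE 0.0811, adjusted p = 0.532). Hsph1 rose by 0.31 (SE 0.132, adjusted p = 0.438). In this main fit an adjusted p of at most 0.05 was reached by 36 genes (0.3%) and by 0 members. Hspa1b reached it with DESeq2 (adjusted p = 0.0309), beside 94 genes, and with the mouse number as a block, beside 81 genes. It also did without HFD-C mouse 5 (adjusted p = 0.049), beside 49 genes, and under no other setting. Of the other cells' markers, 2 of 3 adipocyte genes tested (Cidec and Adipoq) and 1 of 5 macrophage genes (Cd68) were lower in the runners.

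Calls in this comparison depended on which HFD-C libraries were used. With HFD-C mice 5 and 6 alone, 3 members passed, where 13.4% of 11933 genes passed. These were Hspa1b (-0.79, adjusted p = 0.344), Hspa8 (-0.36, adjusted p = 0.188) and Hspb1 (-0.41, adjusted p = 0.335). In that fit Hspa1a had -0.74 (adjusted p = 0.496), Hsph1 0.43 (adjusted p = 0.396) and Hsp90aa1 -0.02 (adjusted p = 0.970), and none of these passed. The values of Hspa1a and Hsph1 were larger in size than in the main fit (-0.64 and 0.31). The fit holds fewer HFD-C mice, and the part of that in the lost calls was not tested. With the ribosomal RNA share as a covariate 1 member passed, where 15.1% of 12006 genes passed, and it was Hspa8 at -0.37 (adjusted p = 0.1). Hspa1b had -0.61 under the covariate (adjusted p = 0.372), Hspa1a -0.28 (adjusted p = 0.776), Hsph1 0.22 (adjusted p = 0.635) and Hsp90aa1 0.03, and none of the 4 passed. The count of members was 3 without HFD-C mouse 1, 3 without mouse 4 and 2 without mouse 6. With all 6 HFD-C mice Hspb1 had -0.22 (adjusted p = 0.573) and did not pass.

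A dose response over 0, 25, 50, 75 and 100% of the unrestricted distance, fitted with a linear and a quadratic term over the 5 HFD groups, was passed by 1 member, where 12.2% of 12006 genes passed. It was Hspa1b (adjusted p = 0.201). Its medians were 5.00, 2.56, 3.08, 3.35 and 2.02 CPM from HFD-C to HFD-U, with the highest in the sedentary group. Over the 4 running groups alone Hspa1b did not pass (adjusted p = 0.946), so no order of the running distances is read from these medians. Hspa1b no longer passed without HFD-C mouse 1 (adjusted p = 0.440), with HFD-C mice 5 and 6 alone (adjusted p = 0.657) or with the ribosomal RNA share as a covariate (adjusted p = 0.719). In each of the last 2 fits Hspa8 was the 1 member that passed (adjusted p = 0.364 and 0.230).

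Of the 4 small heat shock protein genes, Hspb7, Cryab and Hspb6 varied more between mice of a group than the median gene did, and Hspb1 varied less. Hspb1 (HSP27, which protects actin filaments) lies at chr5:135916773-135918417 (gene 15507), Hspb6 (HSP20) at chr7:30251961-30254868 (gene 243912), Hspb7 (a partner of filamin C) at chr4:141148090-141152621 (gene 29818), and Cryab (αB-crystallin, the chaperone of desmin and titin) at chr9:50657251-50667936 (gene 12955). None of the 4 passed in a comparison of a running group with HFD-C. Their log2 fold changes ranged from -0.61 for Hspb7 in HFD-25% (adjusted p = 0.804) to 0.23 for Cryab in HFD-25% (adjusted p = 0.947). These are main-fit values, and the sign of Hspb7 depended on the setting. Among 7 alternatives its lowest values, by rising distance, were -0.611, -0.335, -0.194 and -0.628. Its highest were 0.324, 0.533, 0.875 and 0.402. Hspb7 passed in none of these fits, and the cause of the change in sign was not tested.

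Hspb7 had the widest range of the 10 genes, from 78.6 CPM in an NFD-C mouse to 1335 CPM in an HFD-75% mouse, or 17.0-fold. Its group medians ran from 222 CPM in NFD-C to 463 CPM in HFD-C, and the 4 running groups lay close together between 342 and 353 CPM. The mouse numbered 1 had the highest Hspb7 level in 5 of 6 groups, and also the highest Hspa1b level in 5 of 6 groups. The labels and methods tie these numbers to no litter, cage or day.

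Hspb6 ranged from 447 to 1279 CPM, with group medians from 595 CPM in NFD-C to 864 CPM in HFD-C. Hspb1 ranged from 115 to 281 CPM, with medians from 146 CPM in HFD-50% to 186 CPM in HFD-C. The highest Hspb1 level belonged to HFD-50% mouse 4, whose group otherwise lay between 131 and 154 CPM. Without that mouse Hspb1 fell in HFD-50% by 0.44 against HFD-C (adjusted p = 0.290) and by 0.30 against HFD-U (adjusted p = 0.305). The mouse was picked for its high value, so a lower level without it follows from the choice.

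The effect of the diet was asked between the sedentary groups. In NFD-C against HFD-C 1 member passed at the unadjusted limit, where 4.12% of 12247 genes passed, and 9 of 10 members were lower in NFD-C, with a median log2 fold change of -0.34 beside 0.00 over all genes. Cryab was the member that passed. NFD-C mice had 387 to 713 CPM with a median of 451, and HFD-C mice 439.7 to 1291.5 CPM with a median of 746. The log2 fold change of Cryab in NFD-C was -0.66 (SE 0.227, adjusted p = 1). All 4 running groups had Cryab medians above HFD-C, from 801 to 903 CPM, and overlapped it.

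Mouse 1 of NFD-C stood above its group in 5 members. It had 11.8 CPM of Hspa1a, 8.46 CPM of Hspa1b, 963 CPM of Hspb6, 787 CPM of Hspb7 and 72.5 CPM of Hsp90aa1, against highest values among the other 5 mice of 5.18, 3.17, 634, 302 and 44.1 CPM. This mouse was picked for its high values, so leaving it out lowers the NFD-C levels of these genes by the choice itself. The fit without it is therefore a description and no test of the diet. In that fit 5 members passed in NFD-C against HFD-C, among 784 of 12235 genes (6.41%). These were Hspa1a at -1.03 (adjusted p = 0.590), Hspa1b at -1.18 (adjusted p = 0.431), Hspb6 at -0.63 (adjusted p = 0.557), Hspb7 at -1.42 (adjusted p = 0.481) and Cryab at -0.79 (adjusted p = 0.463).

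Slow fibre genes moved with Cryab. The summed level of Myh7, Myl2, Myl3, Tnnc1, Tnni1, Tnnt1, Atp2a2 and Myh7b was 34.5 to 1895 CPM in NFD-C with a median of 120 CPM, and 135 to 2342 CPM in HFD-C with a median of 1170 CPM. None of the 8 genes passed in that comparison. Over 36 libraries, which share the muscle and its dissection, log2 Cryab correlated with log2 of this sum at r = 0.820, and at r = 0.772 after group means were removed. Hspb6 had r = 0.626 and Hspb7 r = 0.622 with it, and Hspa1a 0.503 and Hspa1b 0.421. After group means were removed these were 0.632, 0.608, 0.583 and 0.562. The other members had 0.155 (Hspb1), 0.10 (Hsp90aa1), 0.10 (Dnajb1), 0.08 (Hsph1) and -0.281 (Hspa8) over the 36 libraries. In HFD-50% against HFD-U 7 of the 8 slow fibre genes were higher at the unadjusted limit, with a median log2 fold change of 2.01, and Cryab had 0.30 (adjusted p = 0.636), which did not pass. The part of fibre composition in the levels of Cryab and of the other members was not tested.

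**Figure D3:**
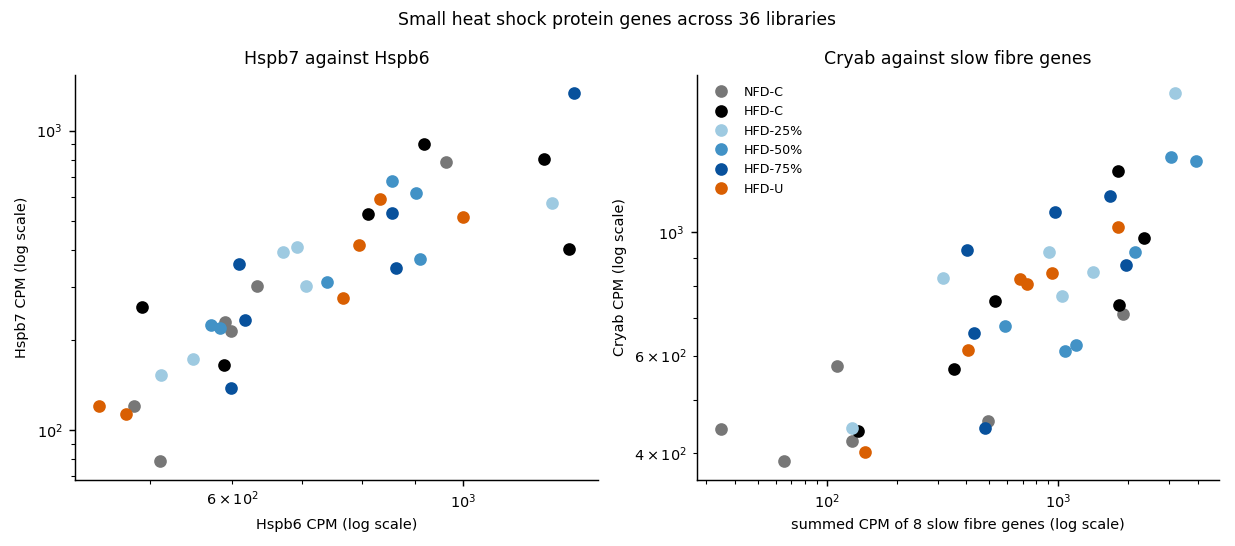
Left, Hspb7 against Hspb6 and right, Cryab against the summed level of 8 slow fibre genes, in CPM on log axes, with 1 point per mouse coloured by group. Hspb7 and Hspb6 correlated at r = 0.863 and Cryab and the slow fibre sum at r = 0.820 over 36 libraries, and every group spreads along both relations.

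Covariation between the members was described over the 36 libraries with log2 CPM, which share depth and scaling. The tightest pair was Hspb6 and Hspb7 (r = 0.863, and 0.847 within groups), followed by Hspa1a and Hspa1b (0.762 and 0.740), whose reads can be interchanged, and by Hspb6 and Cryab (0.717 and 0.742). Hspa1b also followed Hspb7 (0.684 and 0.713) and Hsp90aa1 (0.618 and 0.577). Hspa8 stood apart, with -0.437 against Hspb7 (-0.493 within groups). Hsph1 had no value above 0.317 within groups with any other member, the highest being that with Hspa8.

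**Figure D4:**
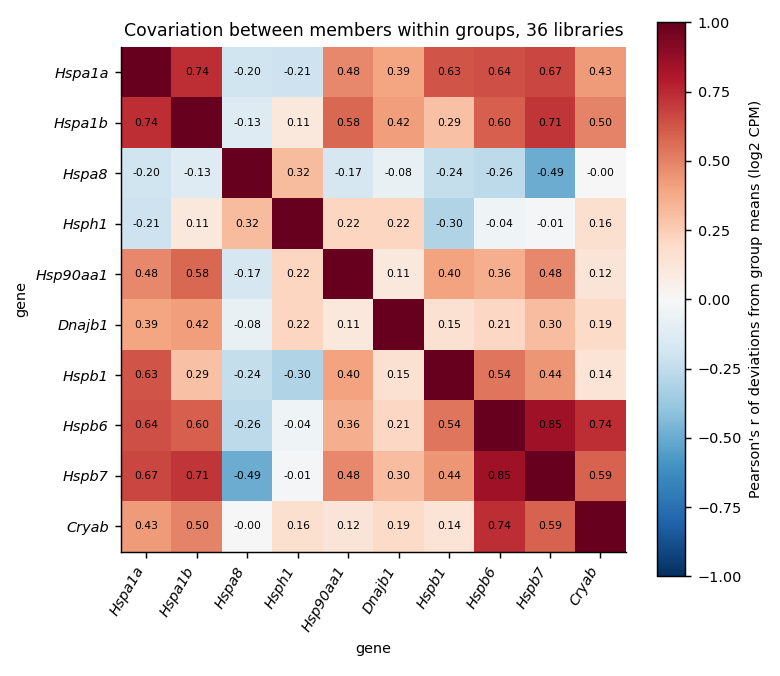
Pearson's r between the 10 genes over 36 libraries after the mean of each group was subtracted from log2 CPM, from blue (negative) to red (positive). A block of positive values joins Hspa1a, Hspa1b, Hspb6, Hspb7 and Cryab, with 0.85 for Hspb6 and Hspb7. Hspb1, Hsp90aa1 and Dnajb1 also had positive values with these genes, among them 0.63 for Hspb1 and Hspa1a and 0.58 for Hsp90aa1 and Hspa1b. The rows of Hspa8 and Hsph1 hold pale or blue cells.

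The 10 genes did not share 1 pattern, so closeness to their mean is not closeness to each of them. The genes closest to this mean were found by the correlation with the mean standardized log2 CPM of the 10 genes over 36 libraries. They were Lmcd1 (r = 0.837), a LIM-domain protein of muscle, Dnaja4 (0.817), an HSP40 gene, Fhl1 (0.785), Atp1b1 (0.785), a subunit of the sodium pump, and Esrrg (0.768), a nuclear receptor. For single members the closest gene was Fhl1 for Hspb7 (0.948) and for Hspb6 (0.885), and Sdhb, a subunit of succinate dehydrogenase, for Cryab (0.936). Ech1, Fabp3, Eci1 and Acaa2 of fatty acid handling came next for Cryab, with 0.900 to 0.915. For Hsph1 they were Aplp2 (0.767), Ahsa2 (0.749), an activator of HSP90, and Stip1 (0.739), which links HSP70 to HSP90. Hspa1b was closest to Dnajb4 (0.792), another HSP40 gene.

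The wider chaperone network was read from 9 lists with 105 other genes. In all runners against HFD-C 8 of the 99 genes tested passed at the unadjusted limit, 8.08% beside 9.27% of all genes, 3 of them higher and 5 lower, and 0 had an adjusted p of at most 0.05. Higher were Fkbp5, an HSP90 co-chaperone induced by glucocorticoids, at 1.22 (adjusted p = 0.0731), the HSP110 gene Hspa4l at 0.49 (adjusted p = 0.399) and the ubiquitin ligase gene Stub1 at 0.23 (adjusted p = 0.453). Lower were the small heat shock protein gene Hspb3 at -0.48 (adjusted p = 0.149) and the HSP40 gene Dnaja1 at -0.24 (adjusted p = 0.257). Also lower were Hsp90b1, the HSP90 of the endoplasmic reticulum, at -0.21 (adjusted p = 0.163), the collagen chaperone gene Serpinh1 at -0.38 (adjusted p = 0.529) and the mitochondrial Dnajc19 at -0.23 (adjusted p = 0.388). None of the 8 genes of the CCT chaperonin and none of the 4 heat shock factor genes tested passed.

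By distance, 6 of 100 of these genes passed in HFD-25% (2 higher, 4 lower) beside 6.98% of all genes, and 6 of 99 in HFD-50% (1 higher, 5 lower) beside 10.7%. The counts were 3 of 100 in HFD-75% (2 higher, 1 lower) beside 5.47% and 3 of 99 in HFD-U (1 higher, 2 lower) beside 5.46%, so each lay below the share over all genes. Hspa4l, which like Hsph1 belongs to the HSP110 family, was among the higher genes in HFD-25% (0.74, adjusted p = 0.427) and in HFD-U (0.57, adjusted p = 0.883). In NFD-C against HFD-C 2 of 100 passed, both lower, beside 4.12% of all genes, and in HFD-50% against HFD-U 7 of 99 passed, 2 higher and 5 lower, beside 12.4%.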

How the data were processed

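The deposited file holds raw counts, which are whole numbers of reads per gene and library made by the authors with HISAT2 2.0.5 and featureCounts 1.5.0-p3 (versions from the submitters' processing notes). No normalization had been applied. The labels name mm10, whereas the chromosome accessions in the file are those of GRCm39, and gene positions are given as the file has them. Libraries were paired-end, and whether strand was used in counting is not given in the sources used here. The Cryab gene model contains Hspb2 on the opposite strand (mean count 596.2), so part of the Cryab counts may be uncertain.

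In R 4.3.3, edgeR 4.0.16 was run on genes averaging 25 counts or more in the libraries fitted, with TMM scaling. Its quasi-likelihood F-test gave the p-values, which received a Benjamini-Hochberg adjustment across every gene fitted. The study's limit is an unadjusted p of at most 0.05, and the adjusted p stands beside it. CPM are counts scaled with TMM factors, and FPKM are CPM per kilobase of the gene length in the file. Groups were compared in fits of their own libraries. Alternatives were DESeq2 1.42.0, RLE factors, no minimum count, a block on the mouse number, the ribosomal RNA share as a covariate, HFD-C mice split by that share, 1 fit over all 36 libraries, and each mouse left out in turn. Scripts were tested on simulated counts.

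Mice carry the numbers 1 to 6 in each group. Same-numbered mice of HFD-U and HFD-C deviated together in 6 of 6 pairs (r = 0.144 to 0.554). Some results of a fit with the block are therefore given beside the main fit of that comparison. Unless the block is named, the HFD-U fold changes, standard errors and p-values come from the fit without it. Elsewhere 1 to 5 of 6 pairs passed r = 0.1. Mice were separate animals, 1 library each. Lengths of reading frames came from GENCODE transcripts.

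The genes shown in detail are the 10 members, with fold changes for those at the unadjusted limit. From each other chaperone list the members with the smallest p were named, and for whole patterns the 5 genes with the highest correlation. Members not passing, genes closest to single members and further chaperones were named after their values were seen. The members, lists and tests were chosen with earlier results of these data known. Lists of blood, endothelial, Schwann cell and immediate early genes summed to 119 to 411, 116 to 407, 33.4 to 299 and 106 to 282 CPM.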

Additional observations from a re-analysis of the deposited data

Results flagged for a closer look

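In 11 of 60 sets of 6 mice (10 genes in 6 groups), 1 mouse stood apart from the other 5 by Dixon's criterion. Its limit is met in about 1 of 20 sets of normally distributed values. CPM were used without a log transformation, and the 60 sets share mice and correlated genes. The count of 11 is therefore not read as an excess over chance.

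NFD-C mouse 1 was apart in 5 genes. It had 11.8 CPM of Hspa1a, 8.46 CPM of Hspa1b, 963 CPM of Hspb6, 787 CPM of Hspb7 and 72.5 CPM of Hsp90aa1. Its slow fibre sum was 1895 CPM, against 34.5 to 497 CPM in the other NFD-C mice.

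HFD-25% mouse 6 was apart in 3 genes, with 7.57 CPM of Hspa1a, 1219 CPM of Hspb6 and 1781 CPM of Cryab. Its slow fibre sum of 3178 CPM was also the highest of its group, in which the others had 128 to 1409 CPM.

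HFD-50% mouse 4 was apart in 2 genes and in opposite directions, with the lowest Hspa8 level of its group at 659 CPM and the highest Hspb1 level at 281 CPM. HFD-75% mouse 1 had 1335 CPM of Hspb7, where the next mouse had 532 CPM.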

How the results depend on the processing

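Members that passed in a main fit gave 119 values under other settings. Of these, 100 still passed the unadjusted limit of 0.05 and 18 no longer passed. The remaining 1 reversed, Hsp90aa1 in all runners (0.034 with the ribosomal RNA share as a covariate), and the cause was not tested. For distance, the running groups and the 6 groups only p was compared, so direction was not checked there. Members that did not pass in the main fit are not in this count. When 1 mouse was left out, 132 of 144 stayed and 12 no longer passed.

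The count of members passing at the unadjusted limit moved by over 1.5 times in these cases. DESeq2 gave 2 in HFD-50%, 1 in HFD-75%, 2 in NFD-C and 2 for distance. No minimum count gave 1 in HFD-75% and 3 in NFD-C. The share as a covariate gave 2 in HFD-50%, 2 in NFD-C, 1 in all runners and 0 over the running groups. HFD-C mice 5 and 6 alone gave 1 in HFD-75% and 3 in all runners, and HFD-C mice 1 to 4 alone gave 2 in NFD-C. A fit over all 36 libraries gave 2 in HFD-50%. It moved by less over 6 groups (4 with DESeq2 or the block, 2 with the covariate), in all runners (4 with RLE factors or no minimum count) and in HFD-25% (4 with HFD-C mice 5 and 6 alone). An equal count can hold other members: under the covariate these were Hspa8, Hspb1 and Hsph1 in HFD-25%, Hspa1b, Hspa8 and Hsph1 in HFD-U and Hspb1 in HFD-50% against HFD-U.

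Genes passing without a minimum count, where many more were tested, were 2240 in NFD-C, 2251 in HFD-U, 2157 in HFD-75%, 2922 in HFD-50%, 2415 in HFD-25%, 2844 in HFD-50% against HFD-U, 3928 in all runners, 5723 for distance, 2668 over the running groups and 5102 over 6 groups. The share as a covariate gave 864 in NFD-C, 1490 in HFD-U, 1020 in HFD-75%, 1617 in HFD-25%, 543 in HFD-50% against HFD-U, 1814 in all runners and 380 over the running groups. HFD-C mice 5 and 6 alone gave 1390 in HFD-U, 1403 in HFD-25% and 1069 in HFD-75%. A linear term alone gave 474 for distance. Apart from the lower number of HFD-C mice in the last fits, the cause was not tested.

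With the mouse number as a block, members passing were 1 in HFD-75%, 4 in NFD-C and 2 for distance. Genes passing under the block were 1232 in HFD-U, 850 in NFD-C, 1478 over the running groups and 2450 over 6 groups, and Hspa1b in all runners had an adjusted p of 0.0357. By the labels, same-numbered mice share only a number in every comparison, HFD-U against HFD-C included. In no comparison did all 12 libraries correlate best with the library of their own number (2 to 9 did).

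With 1 mouse left out, members passing ranged from 2 to 5 in HFD-25% (5 without HFD-C mouse 3 or 5), 1 to 2 in HFD-50% and in HFD-50% against HFD-U (2 without HFD-50% mouse 4), 0 to 3 in HFD-75% (1 to 3 without HFD-C mouse 3, 4 or 5 or HFD-75% mouse 1, 2, 3 or 5), 2 to 4 in HFD-U, 1 to 5 in NFD-C (5 without NFD-C mouse 1, 3 and 2 without HFD-C mice 3 and 5), 2 to 5 in all runners and 0 to 2 for distance (0 without HFD-C mouse 1, 2 without mouse 3 or 5). Genes in NFD-C ranged from 377 to 784. For all runners and for distance only HFD-C mice were left out, and the other running and 6-group tests were not repeated this way. Hspa1a and Hspa1b counts under 500 limit the precision of their values.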

Other observations

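The 6 other small heat shock protein genes listed summed to 254 to 671 CPM per library. Over 36 libraries this sum correlated with Cryab at r = -0.65, with Hspb6 at r = -0.63 and with Hspb7 at r = -0.66, and with Hspa8 at r = 0.65. The sum of the 8 skeletal muscle fibre genes had the same signs, with r = -0.61 for Cryab, -0.55 for Hspb6, -0.61 for Hspb7 and 0.55 for Hspa8. These values share scaling to 1 library total, and no test was made on them.

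Endoplasmic reticulum chaperones, a list of 17 genes led by Hsp90b1 and Serpinh1 in the comparisons with runners, summed to 698 to 893 CPM. Among the members Hsp90aa1 followed this sum most closely (r = 0.65).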
